A study of Mus musculus with 3 samples.

Results

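Allantois cells were taken here as the cells of the embryo that carried transcripts of *Tbx4* together with *Pitx1*, *Hoxa10* or *Hoxa11*. They were selected on measured values of these marker genes: at least 1 unique molecular identifier (UMI, a tag that lets the copies of 1 captured transcript be counted once) of *Tbx4*, at least 1 of *Pitx1*, *Hoxa10* and *Hoxa11* summed, at most 1 of *Kdr*, and none of *Sox2*, *Foxa2* or *Tnnt2*. Of the 22168 cell barcodes that passed quality control (QC), 823 met these conditions, with 154, 291 and 378 in embryos 1, 2 and 3. The series held 3 wildtype mouse embryos on a C57BL/6 x 129 SvEv background, harvested at embryonic day 8 with between 0 and 2 somites according to the labels (the study's methods give a narrower range), and each embryo was dissociated and sequenced as 1 library with 3′ tags. None of these 3 embryos was treated, and no other genotype was among these samples. The study also measured bulk RNA of *FOXJ1-EGFP* embryos, which was not used here. The extraembryonic tissue had been removed before dissociation, and how much of the allantois stayed with the embryo proper is not given in the sources used here.

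The allantois is a bud of extraembryonic mesoderm that grows out from the posterior end of the primitive streak, meets the chorion and becomes the umbilical vessels and the fetal part of the placental circulation. *Tbx4* is a T-box transcription factor needed for the vessels of the allantois, *Pitx1* is a homeodomain factor that acts with it in the hindlimb, and *Hoxa10* and *Hoxa11* belong to the Hox genes of the posterior body. The structure is also a known source of BMP4 and of endothelial precursors. Cells rich in *Kdr*, the main receptor of vascular endothelial growth factor (VEGF), fall outside the rule and are described on their own.

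In the GENCODE annotation of GRCm38, the build of the files, *Tbx4* lies on chromosome 11 from 85886422 to 85916097 next to *Tbx2* (85832551 to 85841948), a T-box gene that was not used to choose the cells. *Pitx1* lies on chromosome 13 from 55825051 to 55836192, *Hoxa10* on chromosome 6 from 52231197 to 52240854 and *Hoxa11* on chromosome 6 from 52242106 to 52245810. To show the control regions of genes that were high together in these cells, the 250 bases before a RefSeq transcription start were read from RefSeq promoter windows (GRCm38.p6) and searched on both strands for AGGTGT, the half-site bound by T-box factors, and for TTTATN, a core bound by caudal (Cdx) and posterior Hox factors. Of the 4 marker genes and the 15 genes with the largest increase against all other cells among those with at least 20 CPM (UMIs per 1000000) in allantois cells and the same sign in 3 embryos, 19 in all, 11 had at least 1 window in the table, which gave 13 windows. AGGTGT stood in 3 of the 13 (23.1%) and in 11.8% of all 32851 windows of the same length, and TTTATN stood in 6 of the 13 (46.2%) and in 37.2% of all windows. A match is a description of letters and not a bound site. Windows are shown for the gene that every cell carries and for one Hox gene with each motif, 5′ to 3′ on the strand of the gene, with the matches to either motif in capitals. They are chr11:85896515-85896764 on the plus strand for *Tbx4*, chr6:52218574-52218823 on the minus strand for *Hoxa7* and chr2:74697513-74697762 on the plus strand for *Hoxd9*. The first 2 lie inside the GENCODE gene (*Hoxa7* runs from 52214491 to 52221854), so they precede an internal RefSeq start and not the outer end of the gene.
Tbx4: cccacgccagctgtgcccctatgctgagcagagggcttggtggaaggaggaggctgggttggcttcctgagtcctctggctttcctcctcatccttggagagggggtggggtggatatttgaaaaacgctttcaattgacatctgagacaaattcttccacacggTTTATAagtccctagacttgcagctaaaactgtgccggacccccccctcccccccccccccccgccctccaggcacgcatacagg
Hoxa7: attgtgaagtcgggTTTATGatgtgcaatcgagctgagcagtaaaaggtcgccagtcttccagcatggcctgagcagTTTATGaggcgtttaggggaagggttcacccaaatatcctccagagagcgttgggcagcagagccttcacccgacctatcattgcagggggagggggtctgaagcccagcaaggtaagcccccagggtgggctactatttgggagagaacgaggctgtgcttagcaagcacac
Hoxd9: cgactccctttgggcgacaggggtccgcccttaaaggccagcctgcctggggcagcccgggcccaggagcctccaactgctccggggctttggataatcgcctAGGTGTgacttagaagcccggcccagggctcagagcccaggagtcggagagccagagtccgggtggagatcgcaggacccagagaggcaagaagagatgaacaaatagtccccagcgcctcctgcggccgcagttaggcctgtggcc

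Allantois cells made up 2.51% of the QC barcodes of embryo 1 (exact Clopper-Pearson 95% interval 2.14 to 2.94), 3.59% of embryo 2 (3.19 to 4.01) and 4.77% of embryo 3 (4.31 to 5.26), a mean of 3.62% ± 1.13 (SD, n = 3 embryos). The 3 intervals did not overlap, and they cover counting error only. The share also moved with depth and with the rule. It was 2.33% ± 0.824 when UMIs were drawn at random down to 5000 in every cell and the rule was applied again, 2.23% ± 0.514 when 2 UMIs of *Tbx4* were required, and 7.22% ± 2.03 for all QC barcodes with *Tbx4*. The cells held a median of 23609, 13085 and 13452 UMIs and 4970, 3630 and 3766.5 genes in the 3 embryos, against 26841, 14522 and 16422 UMIs in all other QC barcodes, so embryo 1 had the deepest cells and the smallest share. Barcode sequences were shared by 20, 14 and 17 QC barcodes for the 3 pairs of libraries, and 5 of these shared sequences belonged to an allantois cell in at least 1 library.

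Levels below are in CPM, the UMIs of a gene for every 1000000 UMIs of a class of cells, both summed within each embryo. They come from 3′ tags, are not corrected for transcript length, and are set against each other between genes only to name the gene with most UMIs in a list. By the rule, every allantois cell had *Tbx4*, at 111, 156 and 130.2 CPM in embryos 1, 2 and 3, against 2.69, 5.85 and 4.81 in all other QC barcodes. *Pitx1* stood at 252 ± 41.9 CPM (SD, n = 3), *Hoxa10* at 106 ± 5.64 and *Hoxa11* at 24.1 ± 1.30, with 17.1 ± 5.29, 4.88 ± 1.76 and 1.30 ± 0.461 in the other barcodes. These values describe the choice and were not tested. The most frequent combination was *Pitx1* with *Hoxa10* and without *Hoxa11*, in 368 cells (44.0% ± 4.6 of an embryo's allantois cells). All of *Pitx1*, *Hoxa10* and *Hoxa11* were found in 205 cells (26.5% ± 6.89), *Pitx1* alone in 157 (18.4% ± 2.51), *Hoxa10* alone in 36, and *Hoxa11* alone in 4. Free RNA in the droplets gives some UMIs to cells that do not make a transcript, and 3267 neural cells (*Sox2* of at least 3 UMIs and *Pou3f1*) served as a class taken to lack these genes. Whether some of the neural cells make them was not tested. The study describes progenitors with both *Sox2* and *T*, so a UMI in the neural cells need not be background. A UMI of *Tbx4* was found in 4.18% ± 1.82 of them, *Pitx1* in 10.3% ± 2.27, *Hoxa10* in 4.02% ± 1.91 and *Hoxa11* in 1.65% ± 0.575, at a greater median depth of 39506.5, 23902 and 30542 UMIs. After thinning to 5000 UMIs, with 3 allantois cells of lower depth left out, *Tbx4* was found in 54.1% ± 4.6 of allantois cells and 0.921% ± 0.538 of neural cells.

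At the limits of the rule, 326 of the 823 cells had exactly 1 UMI of *Tbx4*, and 1030 barcodes were left out by the absence of *Tbx4* alone. The gene *Hoxa9*, which took no part in the rule, had 62.1 ± 18.4 CPM in members with at least 2 UMIs of *Tbx4*, 49.6 ± 17.8 in those with 1, and 15.6 ± 4.65 in the 1030 barcodes outside (SD, n = 3). *Hand1* had 484 ± 39.1, 585 ± 62.9 and 423 ± 58.8 CPM in the same order. Another 52 members had a single UMI of *Pitx1*, *Hoxa10* and *Hoxa11* together, 52 barcodes failed on these genes alone, and 117, 27 and 46 failed on *Sox2*, *Foxa2* and *Tnnt2* alone. Because *Hoxa10* and *Hoxa11* helped to choose the cells, the 157 members with *Pitx1* and neither of these Hox genes were looked at separately. They held 42.6 ± 15.2 CPM of *Hoxc9*, 122 ± 17.8 of *Hoxd9* and 14.1 ± 3.16 of *Hoxa13*, next to 56.5 ± 6.06, 112 ± 8.10 and 18.0 ± 3.26 in the 666 members with *Hoxa10* or *Hoxa11*. *Hoxa9*, the neighbour of *Hoxa10*, had a lower mean in the 157, with overlap between the embryos' values (28.7 ± 22.2 against 63.2 ± 17.4 CPM).

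To ask what else marked these cells, summed UMIs of allantois cells were compared with those of all other QC barcodes, 3 embryos against 3, with edgeR's quasi-likelihood test and Benjamini-Hochberg adjustment over the 15706 genes tested. The other barcodes include the 1030 that lacked *Tbx4* alone and 302 that failed on *Kdr* alone. The 1030 had 423 ± 58.8 CPM of *Hand1* and 296 ± 43.7 of *Spin2c*, and their part in the differences was not tested. A gene is said to have risen or fallen where the adjusted p was under 0.05. Of 24 transcription factors of lateral plate and extraembryonic mesoderm, all of them tested, 16 rose, 1 fell and 7 did not pass (18 rose and 1 fell with the embryo as a block), with a median log2 fold change of 1.32 against -0.05 over all genes. Over all genes 1103 rose (7.02%) and 1923 fell (12.2%). The filter on low counts asked for 0.136 CPM in at least 3 of the 6 sums, and a gene that reached its level in fewer than 3 sums of the lower class passed through the higher class, so that its call is in part set by the filter. That held for 17 of the 1103 and 385 of the 1923. The allantois sums held 4125146, 4501482 and 6029629 UMIs, so 1 UMI in such a sum already lay above 0.136 CPM. A gene with a single UMI in each allantois sum is thus not among the 385. *Hand1*, a basic helix-loop-helix factor of extraembryonic mesoderm, stood at 561, 474 and 525 CPM in allantois cells and at 73.0, 88.6 and 102 in the other barcodes, and the groups did not overlap (log2 fold change 2.54, SE 0.13, adjusted p = 1.16e-05). *Foxf1*, a forkhead factor of extraembryonic and lateral plate mesoderm, had 133 ± 26.8 against 26.8 ± 0.786 CPM (log2 fold change 2.29, SE 0.13). *Tbx20*, a T-box factor of mesoderm, rose by 2.19 on the log2 scale, *Tbx3* by 1.90 and *Isl1*, a LIM-homeodomain factor, by 1.68. *Tbx5*, the forelimb and heart relative of *Tbx4*, was the single factor of this list that fell, with 0.646 ± 0.766 CPM against 3.90 ± 0.474, and it passed the filter through the other barcodes.

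The T-box gene beside *Tbx4* on chromosome 11 had the largest log2 fold change of these 24. *Tbx2* had 21.6, 34.9 and 21.7 CPM in allantois cells and 1.07, 2.18 and 1.65 in all other QC barcodes, without overlap (log2 fold change 3.98, SE 0.31, adjusted p = 4.91e-05). A UMI of *Tbx2* was found in 34.5% ± 7.07 of allantois cells and in 2.01% ± 0.573 of the neural cells. Of 20 genes tied to growth and fusion of the allantois, 14 rose, none fell and 6 did not pass (median log2 fold change 1.75), and 16 rose with the embryo as a block. The 14 included *Dlk1*, an imprinted transmembrane ligand (257 ± 37.3 against 71.4 ± 15.6 CPM), and the mesenchymal factors *Snai1* (63.1 ± 7.18 against 15.4 ± 3.86) and *Twist1* (158 ± 27.5 against 61.5 ± 4.82). Among the 6 were both proteins of the adhesion pair that joins allantois and chorion. *Vcam1*, the allantois side of that pair, had 0.242, 0.222 and 1.82 CPM against 0.303, 0.580 and 0.331, while *Itga4*, its integrin partner, had 6.74 ± 2.67 against 3.61 ± 0.616 CPM and passed with the embryo as a block (adjusted p = 0.00230, edgeR). *Rspo3*, a secreted activator of Wnt signalling, had 105 ± 16.8 against 116 ± 23.9 CPM.

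Over all genes tested, the smallest adjusted p belonged to *Spin2c*, which lies on chromosome X from 153832225 to 153834243 and codes for a Spindlin-family protein. It stood at 529, 550.3 and 506 CPM in allantois cells and at 54.5, 58.8 and 66.9 in the other barcodes, with no overlap (log2 fold change 3.12, SE 0.11, adjusted p = 2.09e-06). Spindlin genes of the X chromosome form a family of similar copies, so how reads were divided among them is uncertain. *Scube3*, a secreted and membrane-bound protein of the EGF-repeat kind, had 21.7 ± 3.92 against 2.12 ± 0.0870 CPM (log2 fold change 3.33). *Col1a1*, a chain of type I collagen, had 37.8 ± 7.11 against 4.49 ± 1.33 CPM (log2 fold change 3.06), and *Plac1*, an X-linked gene known from the placenta, had 68.0 ± 2.57 against 10.7 ± 2.61 CPM (log2 fold change 2.65). At the other end stood *Pou3f1*, *Otx2* and *Sox3*, factors of the neural plate, with log2 fold changes of -3.84, -3.56 and -3.24, and *Cldn6*, a tight junction protein of epithelia, with -3.22.

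**Figure D1:**
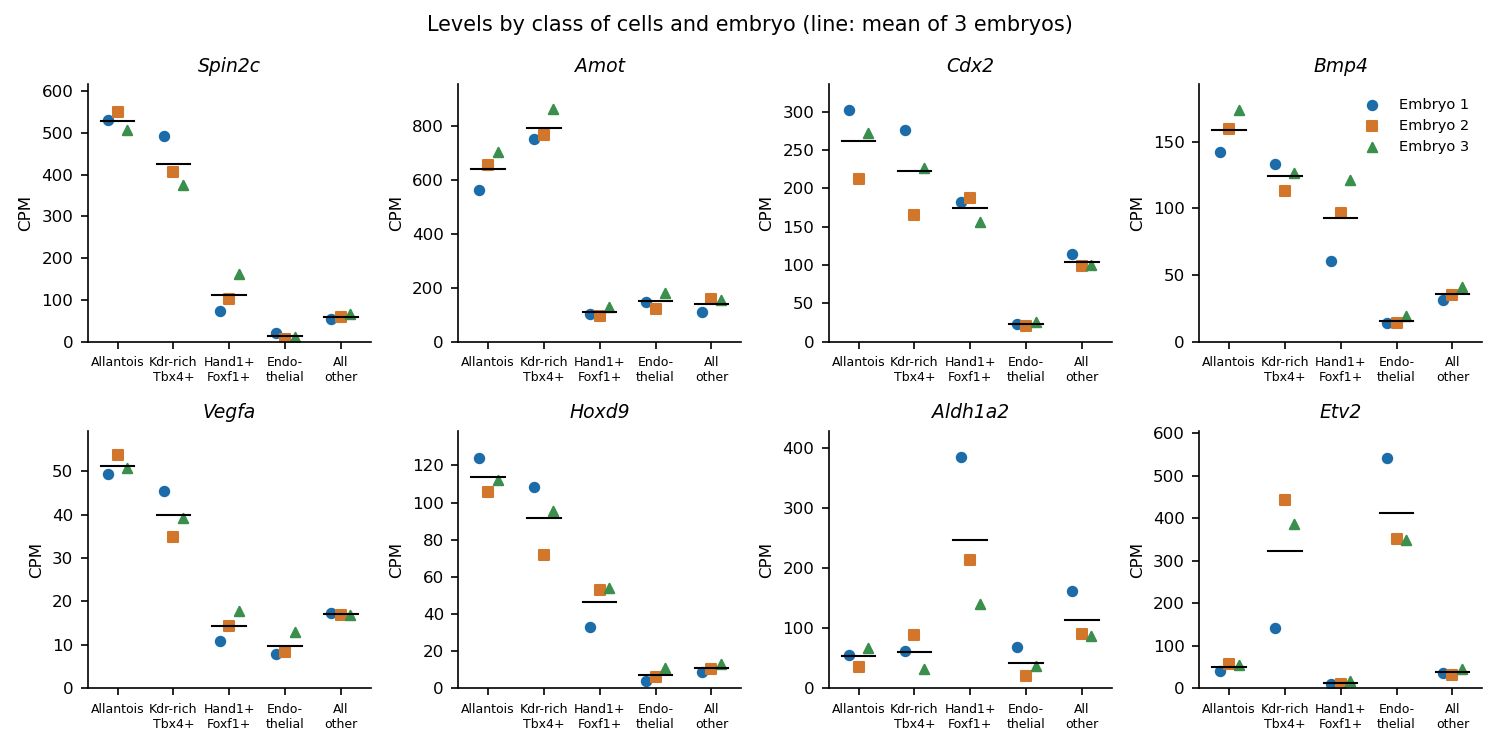
CPM of 8 genes in 5 classes of cells, 1 point per embryo and a line for the mean of the 3 embryos, each panel with its own linear axis from 0. In allantois cells Spin2c was at 506 CPM or more in every embryo and at 66.9 or less in all other barcodes, whereas Aldh1a2 was highest in Hand1+ Foxf1+ mesoderm and Etv2 was highest in endothelial and Kdr-rich Tbx4+ cells.

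The Hox genes lie in 4 clusters in the order of paralogue groups 1 to 13, and the higher groups are known to act toward the posterior end of the body. Of 37 Hox genes other than *Hoxa10* and *Hoxa11*, 34 were tested, 24 rose, 3 fell and 7 did not pass (median log2 fold change 2.03, and 25 rose and 4 fell with the embryo as a block), while *Hoxb13*, *Hoxc12* and *Hoxd12* had too few UMIs. Split by paralogue group, a division made after the values were seen, all 11 tested genes of groups 9 to 13 rose, with log2 fold changes from 1.51 (*Hoxb9*) to 4.68 (*Hoxc11*), although *Hoxc13* passed the filter through the allantois cells. *Hoxa10* and *Hoxa11*, neighbours in the same series of genes, helped to choose the cells, so the choice sets part of this difference. In groups 4 to 8, 11 of 15 rose and none fell, and in groups 1 to 3, 2 of 8 rose and 3 fell. *Hoxa13*, from the end of its cluster, had 15.5, 21.1 and 15.4 CPM in allantois cells and 0.611, 1.18 and 0.975 in the other barcodes (log2 fold change 4.21, SE 0.29, adjusted p = 3.10e-05). *Hoxa9* had 42.4, 77.8 and 51.7 CPM against 1.69, 4.64 and 3.25 (log2 fold change 4.15, SE 0.38, adjusted p = 1.20e-04), and *Hoxc9* had 47.5, 62.0 and 53.2 CPM against 1.97, 4.99 and 3.73 (log2 fold change 3.91, SE 0.32). In each of these genes the lowest allantois value lay far above the highest value of the other barcodes. *Hoxb1* ran the other way, at 30.4 ± 10.8 against 69.4 ± 21.3 CPM (log2 fold change -1.20), a call that was lost without embryo 3. Within groups 1 to 3 the genes that rose were *Hoxd1* and *Hoxd3*, both of the Hoxd cluster. *Hoxd9* was detected in 80.0% ± 11.9 of allantois cells and 8.25% ± 2.20 of neural cells (43.0% ± 2.51 and 1.90% ± 1.08 after thinning).

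**Figure D2:**
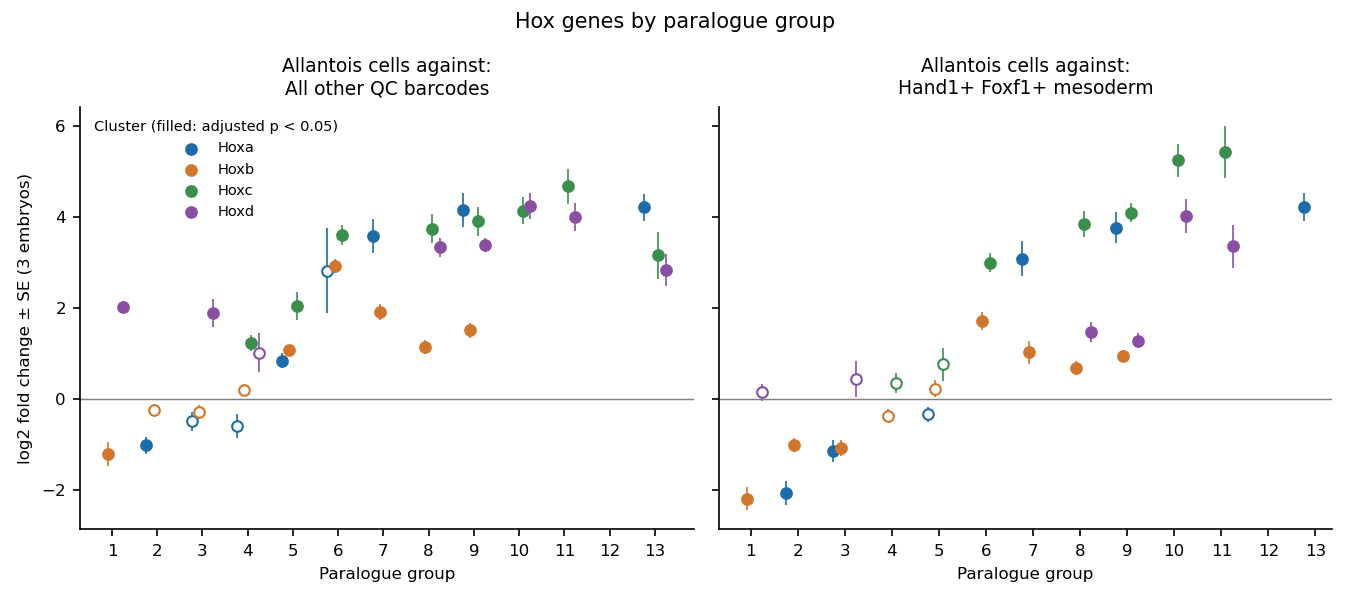
Log2 fold change of tested Hox genes in allantois cells against its paralogue group (1 to 13), compared with all other QC barcodes on the left and with Hand1+ Foxf1+ mesoderm on the right. Bars are standard errors over 3 embryos, colours are clusters, filled points passed an adjusted p of 0.05, and Hoxa10, Hoxa11 and 1 gene that is not reported here are not plotted. Points of groups 9 to 13 all lie above 0 in both panels, and Hoxa2 and Hoxb1 lie below 0 in both.

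The caudal genes that act upstream of Hox genes, and the genes of the primitive streak from which the allantois arises, were divided. *Cdx2* had 302, 212 and 272 CPM in allantois cells and 114, 98.6 and 99.6 in the other barcodes (log2 fold change 1.31, SE 0.12, adjusted p = 1.03e-04), and *Cdx4* had 161 ± 27.8 against 36.1 ± 8.67 CPM (log2 fold change 2.14), but *Cdx1* fell (46.0 ± 6.67 against 148 ± 35.4 CPM). Of 23 genes of streak and caudal tissue, 8 rose and 12 fell (13 with the embryo as a block). Those that rose included *Evx1*, a homeobox gene of the posterior streak (33.7 ± 7.24 against 10.9 ± 1.17 CPM), and *Wnt5a*, a ligand of non-canonical Wnt signalling (141 ± 8.18 against 34.9 ± 4.22). *T*, the founding T-box gene of mesoderm formation, had 23.8, 19.8 and 23.6 CPM against 60.4, 43.1 and 55.1 (log2 fold change -1.25, SE 0.14, adjusted p = 2.96e-04). *Fgf8*, a growth factor of the streak, fell by 1.63 on the log2 scale, and *Wnt3a* by 2.43 with 1.07 ± 0.776 CPM in allantois cells, a call that was lost without embryo 3.

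BMP signalling is required for the allantois to form. Among the ligands, *Bmp4* had 143, 159.9 and 174 CPM in allantois cells against 31.0, 35.0 and 40.9 (log2 fold change 2.14, SE 0.13, adjusted p = 2.16e-05), and *Bmp7* had 36.9 ± 3.40 against 15.9 ± 0.926 CPM (log2 fold change 1.20). Among the inhibitors, *Bambi*, a pseudoreceptor, rose (160.0 ± 44.8 against 39.7 ± 7.18 CPM) and *Fst* (follistatin) fell (35.7 ± 6.35 against 113 ± 19.6 CPM). Over the 13 ligands and antagonists, 3 rose, 2 fell and 8 did not pass, and of 10 receptors and Smads, 2 rose (*Bmpr2*, *Acvr2a*) and 1 fell (*Bmpr1b*). With the embryo as a block 4 of the ligands and antagonists fell and 3 of the receptors and Smads rose. Of 13 genes known to respond to BMP, 7 rose and none fell (median log2 fold change 1.28), and 10 rose with the embryo as a block. Of the 7, all but *Smad6* and *Smad7* were already counted among the lateral plate and extraembryonic mesoderm factors that rose. *Tbx2* and *Hand1* were also counted among the genes of allantois growth, so these counts are not separate evidence. *Msx1* and *Msx2*, homeobox targets of BMP, had 257 ± 17.5 against 104 ± 10.7 and 64.1 ± 21.4 against 20.9 ± 3.15 CPM, and the inhibitory Smads *Smad6* and *Smad7* rose as well. The Id genes, which are also BMP targets, did not pass without the block: *Id1* had 262 ± 19.7 against 229 ± 13.8 CPM, *Id2* had 187 ± 11.7 against 180.0 ± 13.2, and *Id3* had 432 ± 29.7 against 389 ± 10.5. With the embryo as a block *Id1* and *Id3* passed (adjusted p = 0.0132 and 0.0386, edgeR), with log2 fold changes of 0.18 and 0.13 in the test without it.

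Ligands that act on vessels were also among the genes that rose. *Vegfa* had 49.5, 53.8 and 50.7 CPM in allantois cells and 17.3, 16.9 and 16.9 in the other barcodes, so that it varied little within either group (log2 fold change 1.57, SE 0.09, adjusted p = 1.65e-05). It was found in 55.9% ± 7.25 of allantois cells and 27.2% ± 4.11 of neural cells (24.7% ± 0.542 and 4.70% ± 0.439 after thinning). *Pgf*, placental growth factor, had 28.8 ± 11.1 against 5.04 ± 0.715 CPM (log2 fold change 2.51). *Apela*, a ligand of the apelin receptor, had 115 ± 14.5 against 63.3 ± 16.9 CPM and *Vegfc* 13.6 ± 5.49 against 4.98 ± 0.0815, both not called without embryo 3. *Apln*, the other ligand of that receptor, fell (3.36 ± 0.851 against 22.7 ± 5.91 CPM, log2 fold change -2.74). Of the 12 VEGF, angiopoietin, apelin and related ligands, 6 rose and 4 fell, of which *Angpt1* and *Pdgfb* passed the filter through the other barcodes.

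Allantois cells were limited to 1 UMI of *Kdr*, while endothelial cells stayed among the other barcodes, so the rule itself favours lower endothelial genes and their count is a description of the choice. Of 27 endothelial genes tested, 18 fell and 1 rose (median log2 fold change -1.93), and 21 fell and 2 rose with the embryo as a block. Of the 18, 6 passed the filter through the other barcodes. *Cdh5*, with 1 UMI in each embryo's allantois sum, is not counted among these 6. The one that rose was *Eng*, a co-receptor of the TGF-beta family, at 16.7, 4.89 and 6.97 CPM against 3.49, 3.75 and 4.84 (adjusted p = 0.0487, edgeR), a call that was lost when any embryo was left out. *Etv2*, the factor that starts the endothelial programme, did not pass, at 41.0, 57.5 and 55.1 CPM against 37.0, 31.8 and 44.7 (log2 fold change 0.43, SE 0.16, adjusted p = 0.0945, and 9.45e-04 with the embryo as a block). The summed level of 28 endothelial genes was 198, 190.2 and 207 CPM in allantois cells, with *Egfl7* or *Etv2* the most abundant, and *Cdh5* had 3 UMIs in all members. Of 16 genes of blood progenitors and erythroid cells, 3 fell (*Tal1*, *Lmo2* and *Myb*) and none rose, and all 16 fell with the embryo as a block. *Tal1* and *Lmo2* were not called without embryo 3. The summed level of the 16 genes differed between libraries, at 17.5, 247 and 31.2 CPM in allantois cells and 49.5, 1428 and 288 CPM in the other barcodes. In embryo 2 the most abundant was *Hbb-bh1*, an embryonic globin, at 101 CPM in allantois cells and 604 in the other barcodes. Its part in the results was not tested.

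The rule kept every barcode with *Sox2*, *Foxa2* or *Tnnt2* out of the allantois cells and left them in the comparison group, so lower levels of neural, endoderm, node and cardiac markers are in part set by the choice. How large that part is was not tested. All 12 markers of extraembryonic endoderm fell, from a summed 2178, 5991 and 4191 CPM to 492, 656 and 826, and *Apoe* was the most abundant in each of these sums. Of 10 neural markers 9 fell, of 11 tested paraxial and presomitic markers 9 fell, of 8 cardiac markers 5 fell, of 5 tested surface ectoderm markers 4 fell, and of 8 node and notochord markers 5 fell, and none of these genes rose. The filter was passed through the other barcodes alone by 3 of the 9 neural, 1 of the 4 surface ectoderm and 4 of the 5 node and notochord markers. With the embryo as a block 10 paraxial and presomitic, 6 cardiac and 6 node and notochord markers fell. All 12 extraembryonic endoderm markers still had a UMI in the allantois sum of every embryo, and their part in the results was not tested.

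Of 20 imprinted genes of growth control, 13 rose and 2 fell (*Plagl1* and *Nnat*), with a median log2 fold change of 0.64, and 15 rose with the embryo as a block. *Mest* had 713, 696 and 778 CPM in allantois cells and 225, 277 and 268 in the other barcodes (log2 fold change 1.49, SE 0.10, adjusted p = 3.23e-05). *Peg10*, a retrotransposon-derived gene needed in the placenta, had 327 ± 33.6 against 83.4 ± 10.6 CPM, *Phlda2*, which restrains placental growth, had 2239 ± 309 against 607 ± 56.9, and *Igf2r* had 127 ± 20.8 against 53.8 ± 6.83. *Cdkn1c*, an inhibitor of the cell cycle, had 303, 648 and 742 CPM against 173, 218 and 206, with embryo 1 the lowest of the allantois values. Of 26 cell cycle genes, *Ccne2* and *Cdkn1c* rose, *Cdkn1a* fell and the other 23 did not pass (4 rose and 4 fell with the embryo as a block). In matrix and adhesion, the matrix gene *Dcn* was among the genes that fell, and it passed the filter through the other barcodes. In this list 10 of 38 genes rose and 8 fell (15 and 9 with the embryo as a block). The mesenchymal *Vim* (393 ± 53.3 against 193 ± 4.94 CPM) and *Cdh11* (61.1 ± 12.9 against 23.7 ± 2.89) were among the first, and the epithelial *Cdh1* (5.04 ± 1.46 against 38.0 ± 7.38) and *Epcam* (27.4 ± 4.61 against 154 ± 8.62) among the second. Of 14 tested genes of retinoic acid metabolism and signalling, 8 fell (9 with the embryo as a block) and 2 rose (*Crabp1* and the receptor *Rarg*, 53.2 ± 5.42 against 18.9 ± 2.04 CPM), and *Aldh1a2*, the enzyme that makes retinoic acid in mesoderm, had 53.1 ± 15.9 against 113 ± 42.2 CPM.

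The number of genes called against all other barcodes was sensitive to the design. With the embryo as a block it was 2283 risen and 3133 fallen. It was 565 and 1049 without embryo 2 and 284 and 476 without embryo 3.

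To compare allantois cells with other mesoderm that carries *Hand1* and *Foxf1*, 543 QC barcodes (175, 171 and 197) were taken with at least 2 UMIs of *Hand1*, at least 1 of *Foxf1*, at most 1 of *Kdr* and none of the 4 marker genes, *Sox2*, *Foxa2* or *Tnnt2*. *Hand1* (304 ± 58.5 CPM) and *Foxf1* (124 ± 21.3) describe this choice and were not tested, and the allantois sums are the same as above, so the comparisons are not independent. Of 10457 genes, 414 rose in allantois cells (3.96%) and 474 fell (4.53%), and with the embryo as a block 942 and 996. The filter asked for 2.32 CPM here, and 66 of the 414 passed it through the allantois cells and 89 of the 474 through the mesoderm. Leaving out an embryo gave 252 and 240 (without embryo 1), 207 and 224 (without embryo 2) and 239 and 237 (without embryo 3).

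Hox genes differed between these mesoderms in both directions. Of 29 tested, 16 rose and 6 fell (median log2 fold change 0.94 against -0.00 over all genes), and 7 fell with the embryo as a block. The mesoderm was chosen without any UMI of *Hoxa10* and *Hoxa11*, so the choice sets part of the difference in posterior Hox genes. All 9 tested genes of groups 9 to 13 rose, but 6 of them passed the filter through the allantois cells: *Hoxc11*, *Hoxc10*, *Hoxd10*, *Hoxd11*, *Hoxa13* and *Hoxa9* had 2, 4, 6, 7, 10 and 46 UMIs in the mesoderm. Further, 7 of 12 in groups 4 to 8 rose, and 6 of 8 in groups 1 to 3 fell. *Hoxc9* had 2.49, 4.42 and 2.88 CPM in the *Hand1+ Foxf1+* mesoderm, below every allantois value given above (log2 fold change 4.10, SE 0.21, adjusted p = 1.60e-06). *Hoxb1* had 135 ± 44.0 CPM there against 30.4 ± 10.8 in allantois cells (log2 fold change -2.19). *Hoxd1* and *Hoxd3*, which rose against all other barcodes, had log2 fold changes of 0.15 and 0.44 here and did not pass.

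*Amot*, an X-linked regulator of the Hippo pathway, had 562, 654 and 702 CPM in allantois cells and 105, 95.4 and 128 in the mesoderm (log2 fold change 2.52, SE 0.12, adjusted p = 1.40e-06). *Spin2c* rose here too (112 ± 45.2 CPM in the mesoderm, log2 fold change 2.21), as did *Scube3* (2.08 ± 0.704 CPM, 3.37), *Tbx2* (2.37 ± 1.5 CPM, 3.51) and *Plac1* (13.7 ± 4.24 CPM, 2.34). *Scube3* and *Tbx2* passed the filter through the allantois cells. *Vldlr*, a lipoprotein receptor, had 37.3 ± 9.04 against 5.61 ± 0.483 CPM and *Lgr4*, a receptor for R-spondins, 24.4 ± 8.21 against 4.04 ± 1.57. *Isl1* rose (73.6 ± 10.4 against 24.8 ± 6.50 CPM). *Bmp4* had 159 ± 15.7 against 93.1 ± 30.7 CPM (log2 fold change 0.76, SE 0.20, adjusted p = 0.0349, edgeR). This call was lost with DESeq2 and without embryo 2, and the sign turned when the classes were chosen on thinned cells (-0.048). *Cdx2* rose by 0.55 on the log2 scale, not called without embryo 1 or embryo 3, while *Cdx4* did not pass (161 ± 27.8 against 149 ± 49.0 CPM). Of 18 tested imprinted genes, 7 rose and 2 fell, and *Phlda2* did not pass. Of 21 tested contractile and cytoskeletal genes, 1 rose (*Krt19*) and 1 fell (*Tagln*), next to 3.96% and 4.53% over all genes. *Tpm4*, *Myh10*, *Ahnak*, *Anxa2*, *Lgals1* and *Krt8*, which rose against all other barcodes, did not pass here. With the embryo as a block 10 imprinted genes rose and 2 fell, and 6 contractile and cytoskeletal genes rose and 5 fell.

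*Etv2* rose against this mesoderm. It had 11.1, 10.7 and 16.4 CPM there, against 41.0, 57.5 and 55.1 in allantois cells, with no overlap (log2 fold change 1.99, SE 0.19, adjusted p = 7.48e-05). Of 12 tested endothelial genes, 5 rose (*Eng*, *Fli1*, *Etv2*, *Sox17* and *Plvap*) and 2 fell (*Aplnr* and *Notch1*), and 6 rose with the embryo as a block. Of the 5, *Etv2* alone reached the filter's level in every mesoderm sum, and the other 4 passed through the allantois cells, such as *Sox17*, an endothelial and endodermal Sox factor (8.86 ± 3.12 against 1.86 ± 0.146 CPM). *Vegfa* (14.4 ± 3.46 CPM in the mesoderm, log2 fold change 1.84) and *Apela* (37.3 ± 7.98 CPM, 1.61) rose too.

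All 10 tested paraxial and presomitic markers fell against this mesoderm (median log2 fold change -1.83), 2 of which (*Msgn1* and *Lfng*) passed the filter through the mesoderm, among them *Tbx6*, the T-box gene of presomitic mesoderm (6.82 ± 1.99 against 36.4 ± 13.4 CPM). *Lhx1* and *Osr1*, factors known from intermediate mesoderm, were among the 15 largest falls and had 7.92 ± 4.49 against 69.8 ± 17.9 and 9.39 ± 2.50 against 50.3 ± 13.8 CPM. *Aldh1a2* had 55.3, 36.2 and 67.8 CPM in allantois cells and 385, 215 and 140.4 in the mesoderm, where embryo 1 was the highest (log2 fold change -2.24, SE 0.31, adjusted p = 7.49e-04). *Mixl1*, a homeobox gene of the streak, had 8.47 ± 0.358 against 20.4 ± 3.37 CPM, although it had risen against all other barcodes (0.81). None of the 12 extraembryonic endoderm markers passed in this comparison with edgeR and 1 rose with the embryo as a block, and of 3 tested blood genes 1 passed (*Runx1*, higher, through the allantois cells), while with the block 2 rose (*Runx1* and *Hbb-bh1*) and 1 fell (*Lmo2*).

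A class of 623 endothelial cells (175, 170 and 278) with at least 3 UMIs of *Kdr*, at least 1 of *Pecam1*, *Cdh5* and *Esam* summed and none of *Tbx4*, *Sox2*, *Foxa2* or *Tnnt2* gave the next comparison. Of 10589 genes, 1480 were higher in allantois cells (14%) and 1732 lower (16.4%), and 2030 and 2210 with the embryo as a block. Without embryo 3, 690 were higher, and without embryo 2, 946. The classes were set apart by *Kdr* and by *Pecam1*, *Cdh5* and *Esam*, so lower endothelial genes in allantois cells follow from the choice. The filter asked for 2.19 CPM, and 334 of the 1480 passed it through the allantois cells and 382 of the 1732 through the endothelial cells. As a description, all 23 endothelial genes tested were lower in allantois cells (median log2 fold change -6.20), 13 of them through the endothelial cells. The ETS factor *Fli1* had 5.81 ± 2.18 against 277 ± 14.8 CPM, *Flt1*, a receptor for VEGF, 8.05 ± 4.70 against 249.9 ± 32.6, and *Lmo2*, a cofactor of blood and endothelium, 12.2 ± 4.28 against 458 ± 19.9. *Etv2* had 51.2 ± 8.94 against 414 ± 111 CPM (log2 fold change -3.05) and *Sox17* 8.86 ± 3.12 against 62.6 ± 16.3 (-2.85). *Gpr182*, a receptor of endothelium, had 0 UMIs in all 823 allantois cells and 555 in the endothelial cells. With a floor of 3 UMIs over all members it was at least 213-fold lower in allantois cells, and *Clec1b*, also at 0 UMIs, at least 115-fold lower. In the other direction, *Hand1* had 18.3 ± 7.03 CPM in endothelial cells (log2 fold change 4.74), *Spin2c* 13.3 ± 7.38 (5.21), *Cdx2* 23.3 ± 2.54 (3.44) and *Bmp4* 15.9 ± 2.70 (3.27). Of 28 Hox genes tested, 21 were higher in allantois cells, although 14 of the 21 passed the filter through the allantois cells. Their sums ranged from 0 UMIs in all endothelial cells (*Hoxa13* and *Hoxd11*) upward, with 9 for *Hoxc4*, 15 for *Hoxc6* and 16 for *Hoxa3*. Further, *Hoxb2* and *Hoxb3* were lower, *Hoxb2* at 41.5 ± 1.67 against 107 ± 8.15 CPM. Of the 12 extraembryonic endoderm markers, 8 were higher in allantois cells and 1 was lower (10 and 1 with the embryo as a block). Of the 8, *Afp* passed the filter through the allantois cells. The median log2 fold change of the 12 was 1.45, and their part in these results was not tested.

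Just outside the rule lay 302 cells (52, 106 and 144) that met every condition except the limit on *Kdr*, with at least 2 UMIs of it. They had 166 ± 17.6 CPM of *Tbx4*, 261 ± 41.6 of *Pitx1* and 105 ± 14 of *Hoxa10*, values that the shared conditions fix in part. Against allantois cells, 6 of 9879 genes rose (0.0607%) and none fell (0%) with edgeR, 27 rose and 1 fell with DESeq2, and with the embryo as a block 130 rose and 71 fell. The 6 genes were *Etv2*, *Tal1*, *Sox7*, *Rhoj*, *Plet1* and *Shank3*, of which *Rhoj*, *Plet1* and *Shank3* are named after their values were seen. The classes were set apart by *Kdr*, so higher endothelial genes in *Kdr*-rich cells follow in part from the choice. *Etv2* had 143, 443 and 386 CPM in *Kdr*-rich cells, with embryo 1 the lowest, and 41.0, 57.5 and 55.1 in allantois cells (log2 fold change 2.66, SE 0.32, adjusted p = 0.0103). *Tal1*, a factor of blood and endothelial precursors, had 13.2, 44.0 and 62.5 CPM against 0.970, 6.89 and 2.16 (log2 fold change 3.62, SE 0.55, adjusted p = 0.0368). *Sox7*, an endothelial Sox factor, had 54 UMIs in *Kdr*-rich cells and 3 in allantois cells. The filter asked for 3.12 CPM, and 5 of the 6 genes, all but *Etv2*, passed it through the *Kdr*-rich cells. None of the 6 was called without embryo 2 or without embryo 3, and 20 genes were called higher without embryo 1. Of later endothelial genes, *Kdr*-rich cells had 3.04 ± 0.960 CPM of *Pecam1* and 15 UMIs of *Cdh5*.

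When all *Tbx4+* cells that met the other conditions were ordered by their *Kdr* UMIs, in classes set after the values were seen, *Etv2* had 44.8 ± 3.81 CPM in the 603 cells without *Kdr*, 66.9 ± 20.9 in the 220 with 1 UMI, 108 ± 53.7 in the 109 with 2, 267 ± 226 in the 89 with 3 or 4, and 579.5 ± 269.7 in the 104 with 5 or more (SD, n = 3 embryos). *Tal1* had 2.65 ± 2.83, 5.13 ± 3.60, 4.77 ± 4.25, 28.6 ± 24.7 and 85.1 ± 52.5 CPM in the same order. *Hand1* went the other way, from 545 ± 48.0 CPM without *Kdr* to 191 ± 73.5 with 5 or more. Embryo 1 departed from embryos 2 and 3 in that *Etv2* was still at 38.4 CPM in its 9 cells with 3 or 4 UMIs of *Kdr*. These values share their libraries and were not tested.

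**Figure D3:**
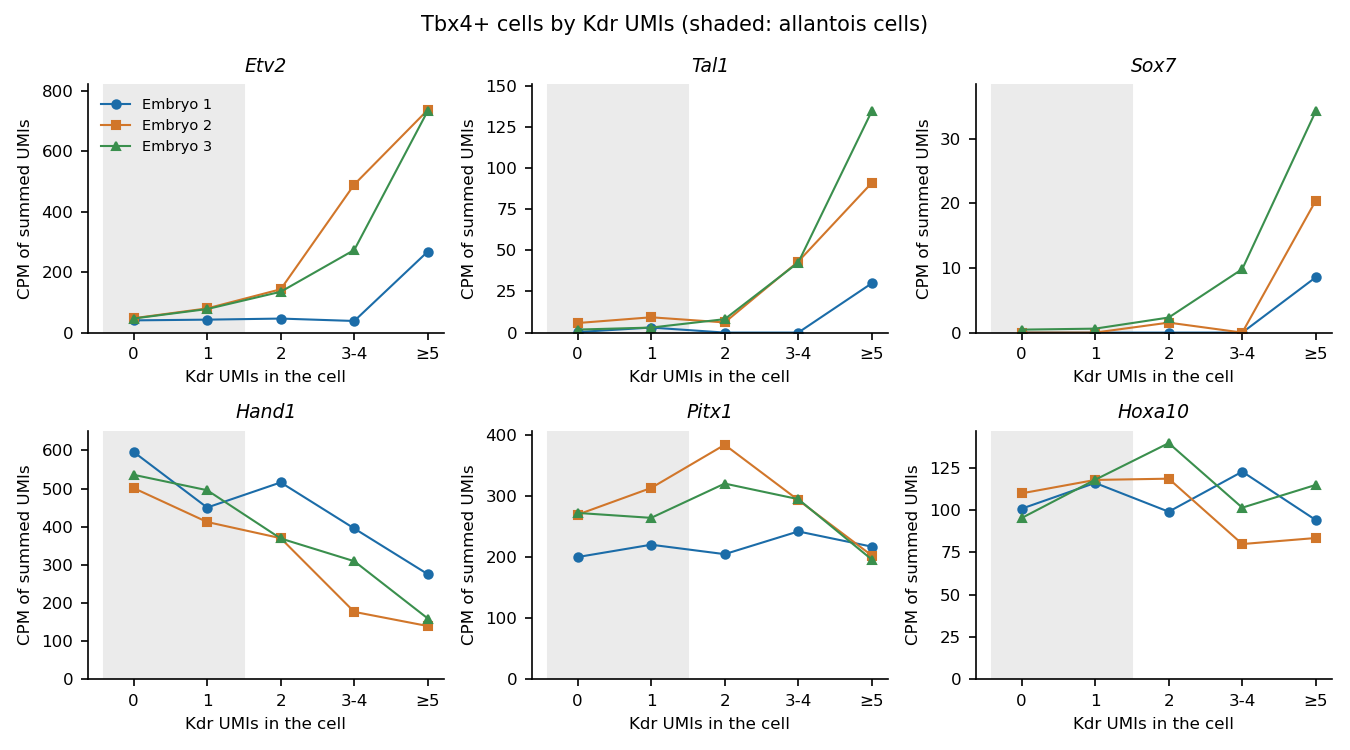
CPM of summed UMIs in Tbx4+ cells against the number of Kdr UMIs in the cell, 1 line per embryo, each panel with its own linear axis from 0. The shaded part holds the allantois cells. Etv2, Tal1 and Sox7 are highest in all 3 embryos at 5 or more UMIs of Kdr, where Hand1 is lowest.

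Allantois cells with and without a UMI of *T* were then compared. A UMI of *T* was found in 175 of the 823 cells (48, 50 and 77) and in 34.6% ± 6.90 of neural cells. The study describes progenitors with both *Sox2* and *T*, so *T* in the neural cells need not be background. The background share of *T* was not measured, and a single UMI of it may be background. Cells with *T* were also deeper (median 26974.5, 14896 and 18453 UMIs against 22467, 12902 and 13131 without). On thinned cells chosen again no gene passed in either direction. Of 9101 genes, 65 rose in cells with *T* (0.714%) and 21 fell (0.231%), and 226 and 201 with the embryo as a block. Without embryo 3, 2 genes rose and none fell, and without embryo 2, 32 rose and 7 fell. Of 8 tested paraxial and presomitic markers 5 rose and none fell (median log2 fold change 1.95), and of 16 streak and caudal genes 8 rose and none fell (median 1.07). The filter asked for 4.77 CPM, and 26 of the 65 passed it through the cells with *T*, among them 4 of these 5 presomitic markers (*Tbx6*, *Dll1*, *Dll3* and *Hes7*) and 3 of the 8 streak and caudal genes (*Mixl1*, *Fgf17* and *Tbx6*). With the embryo as a block 7 and 10 of them rose. Of 5 tested germ cell genes, 3 rose (*Ifitm1*, *Ifitm3* and *Pou5f1*) and none fell (median 0.72), and 3 rose with the block. *Dll3*, a Notch ligand of presomitic mesoderm, had 17.7, 13.4 and 23.2 CPM in cells with *T* and 1.92, 3.61 and 1.80 in those without (log2 fold change 2.93, SE 0.34, adjusted p = 6.08e-04). *Tbx6* had 17.9 ± 7.57 against 2.73 ± 0.723 CPM (log2 fold change 2.71), *Hes7*, an oscillating gene of somite formation, 20.8 ± 11.4 against 3.58 ± 0.871 (2.58), and *Sp5*, a Wnt target, 33.9 ± 15.8 against 6.12 ± 1.11 (2.52). *Cdx1* had 91.0, 97.2 and 129 CPM against 27.3, 23.8 and 20.1, with no overlap (log2 fold change 2.21, SE 0.17, adjusted p = 8.84e-06), and *Hoxb1* had 59.8 ± 22.5 against 18.4 ± 4.62 CPM (1.80). *Aldh1a2* had 87.1, 49.1 and 173 CPM against 36.6, 33.0 and 30.0, with embryo 3 the highest.

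In cells with *T*, 2 of 26 matrix and adhesion genes fell and 1 rose, 3 of 19 contractile and cytoskeletal genes fell, and 4 of 17 imprinted genes fell. With the embryo as a block 7, 10 and 8 of these lists fell, and 2, 0 and 1 rose. Of the 12 extraembryonic endoderm markers, *Apoe* fell, 8 fell with the block, and the median log2 fold change was -1.20, and their part in these results was not tested. *Col1a2* had 16.4, 6.70 and 11.9 CPM with *T* and 30.4, 29.7 and 43.5 without (log2 fold change -1.48, SE 0.26, adjusted p = 0.0100), and *Col1a1* had 23.2 ± 3.95 against 44.1 ± 9.87 CPM (-0.93). *Ahnak*, a large scaffold protein, had 44.8 ± 8.15 against 89.5 ± 29.2 CPM, *Lgals1*, a secreted lectin, 78.8 ± 12.8 against 132 ± 11.7, and *Mest* 503 ± 50.4 against 813 ± 64.8. *Pitx1*, part of the rule and not tested, stood at 157 ± 19.1 CPM with *T* and 285 ± 51.9 without. *Hand1* (484 ± 64.9 against 532 ± 42.9 CPM) and *Bmp4* (140.3 ± 4.22 against 164 ± 22.3) did not pass. Of 26 Hox genes tested, 2 rose and none fell, and 5 rose and 3 fell with the embryo as a block. The 9 tested genes of groups 9 to 13 had log2 fold changes from -0.89 to 0.33, and none of them passed without the block, while *Hoxc9* and *Hoxc10* fell with it. Of the 19 genes of this comparison followed through the alternatives, *Cdx1* alone was still called without embryo 3.

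**Figure D4:**
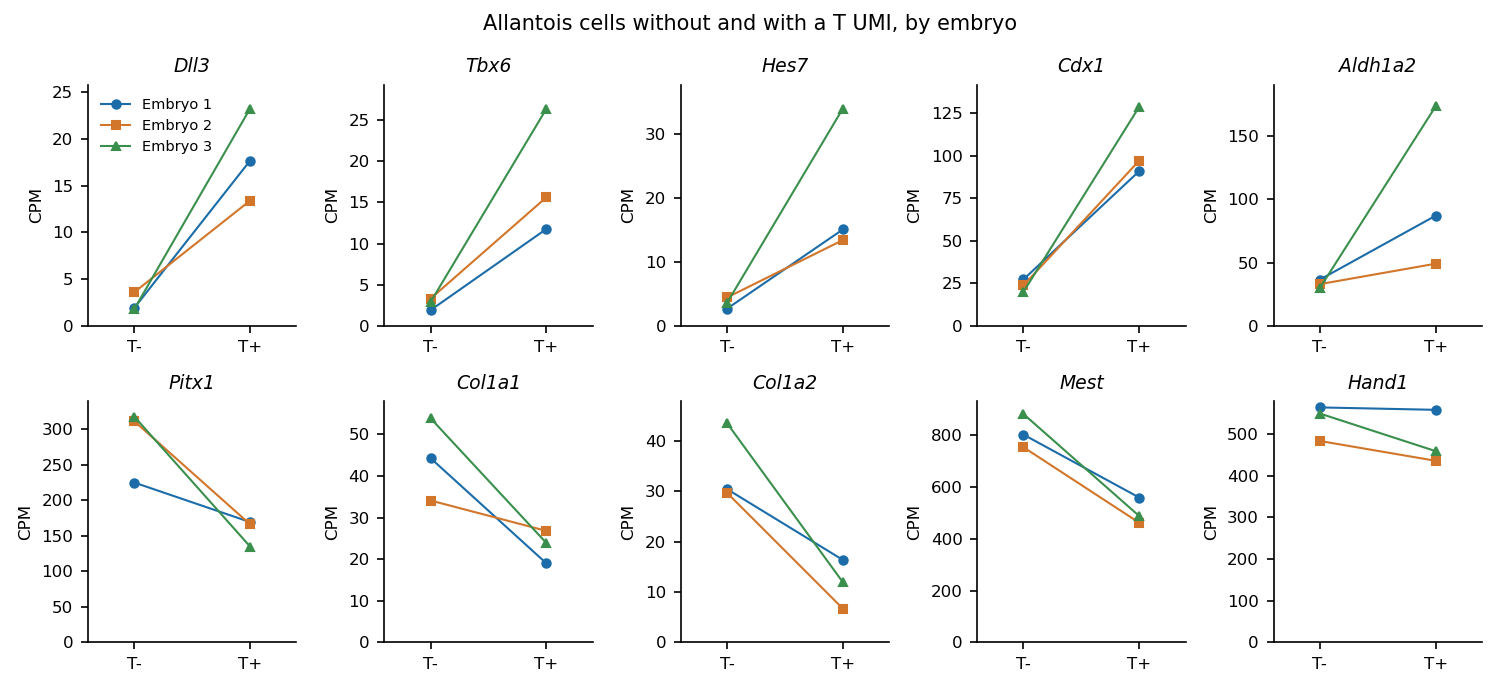
CPM of 10 genes in allantois cells without (T-) and with (T+) a UMI of T, 1 line per embryo, each panel with its own linear axis from 0. Dll3, Tbx6, Hes7, Cdx1 and Aldh1a2 are higher with T in all 3 embryos, and Pitx1, Col1a1, Col1a2 and Mest are lower in all 3. Hand1 is also lower in all 3 but did not pass, with a mean of 484 ± 64.9 with T and 532 ± 42.9 without.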

How the data were processed

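Single-cell RNA was measured in 3 wildtype embryos with the 10x Genomics 3′ version 3 kit (1 library per embryo). The authors aligned reads with Cell Ranger 3.1.0 to mm10 with EGFP added and deposited raw UMI counts of 31054 features in every called cell (6579, 8621 and 8333 barcodes holding 207961733, 149341900 and 167503888 UMIs). Barcodes with 1500 to 8500 genes (at most 7500 in embryo 2) and at most 10% mitochondrial UMIs were kept, as the study states, which left 6129, 8116 and 7923. The study then removed clusters with unusually low mitochondrial shares and gene counts and with mixed cell type markers. These clusters were not removed here. No doublet caller was run: the limits on *Sox2*, *Foxa2*, *Tnnt2*, *Kdr* and genes per cell remove some mixed barcodes, and leaving out the 6% of barcodes with most UMIs (7 allantois cells) was an alternative.

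UMIs were summed per embryo and class and compared with edgeR 4.0.16 (R 4.3.3; filterByExpr, TMM, glmQLFit and glmQLFTest), after a test on simulated data, with genes used to choose a class left out. Standard errors come from the F statistic. The sums of an embryo share its handling: both sums come from 1 animal, and once the mean of each class was taken off, the 2 sums of an embryo correlated across genes at 0.259 to 0.424, so the embryo pairs them, and counts of calls with the embryo as a block are given where they differ from those without it. Alternatives were DESeq2 1.42.0, no filter on low counts, thinning to 5000 UMIs (classes chosen again), at least 2 UMIs of *Tbx4*, barcodes under 0.5% mitochondrial UMIs left out, and each embryo left out.

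The cell rule, gene lists and comparisons were chosen with earlier results of these data known. Some lists share genes, so their counts are not independent. Besides the rule and list genes, the text names genes among the 15 largest changes each way with an adjusted p under 0.05, the same sign in 3 embryos and at least 20 CPM in the higher class. A Hox gene that enters the counts is not reported by name. Sequences are from RefSeq and coordinates from GENCODE. Figures used matplotlib 3.10.9.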

Additional observations from a re-analysis of the deposited data

How the results depend on the processing

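Of 1137 values for 116 named gene results under the alternatives, 1048 kept their direction and side of the threshold and 89 did not, of which 43 were in the comparison by *T* and 14 in that with *Kdr*-rich cells. A gene without a test result under an alternative, such as one removed by the filter on low counts, is in neither number. With cells thinned, 8 of the 19 genes by *T* and 1 of the 6 of the *Kdr*-rich comparison had a value. None of the 120 values against endothelial cells changed. *Bmp4* against the *Hand1+ Foxf1+* mesoderm was the one reversal, at -0.048 with cells thinned. Genes risen and fallen against all other barcodes numbered 2283 and 3133 with the embryo as a replicate block, 575 and 866 with cells thinned, and 284 to 857 and 476 to 1542 with an embryo left out. Against the mesoderm they were 942 and 996 with the block, 684 and 713 without the filter on low counts, 77 and 118 thinned, and 207 to 252 and 224 to 240 with an embryo left out. Against endothelial cells they were 447 and 626 thinned, and 690 to 1240 and 1169 to 1708 with an embryo left out. For *Kdr*-rich cells they were 130 and 71 with the block, 27 and 1 with DESeq2, 100 and 33 without the filter, 17 and 2 without the barcodes with most UMIs, 2 and 1 thinned, and 0 to 20 and 0 to 1 with an embryo left out. By *T* they were 226 and 201 with the block, 119 and 104 without the filter, 34 and 3 with at least 2 UMIs of *Tbx4*, 0 and 0 thinned, and 2 to 41 and 0 to 14 with an embryo left out. The mean share of allantois cells was 2.23% with at least 2 UMIs of *Tbx4*, 2.33% thinned and 7.22% by *Tbx4* alone. Thinning and leaving out an embryo leave fewer UMIs or sums by construction, and for the other settings the cause was not tested. Sparse genes are limited by depth, which was greatest in embryo 1 and lowest in embryo 2 per cell.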

Other observations

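Over all genes tested against all other barcodes, 7.02% rose and 12.2% fell. The list counts below were not tested against these shares. Germ cells lie close to the base of the allantois at this stage. Of 10 tested germ cell genes, 1 rose in allantois cells against all other barcodes (*Kit*) and 3 fell (*Tfap2c*, *Pou5f1* and *Nanog*), and 5 fell with the embryo as a block. Of the 3, *Nanog* passed the filter through the other barcodes. Of 7 tested genes of chorion and trophoblast, 1 rose (*Cdx2*) and 3 fell (*Tfap2c*, *Eomes* and *Krt7*). *Tfap2c* is also in the germ cell list, and *Cdx2* is also in the list of streak and caudal genes. Of 22 contractile and cytoskeletal genes, 6 rose (*Tpm4*, *Myh10*, *Ahnak*, *Anxa2*, *Lgals1* and *Krt8*) and none fell, and 12 rose and 2 fell with the embryo as a block. Of 11 tested T-box genes, 3 rose (*Tbx2*, *Tbx3* and *Tbx20*) and 5 fell (*T*, *Tbx1*, *Tbx5*, *Tbx6* and *Eomes*), of which *Tbx5* passed the filter through the other barcodes.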
